A study of Homo sapiens with 4 samples.

Results

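The aryl hydrocarbon receptor (AHR), its partner, its feedback repressors and its classical target enzymes were examined in the human glioblastoma line LN-229, an established cell line, with and without induced WIF1. The members were AHR, ARNT, AHRR, TIPARP, CYP1A1, CYP1A2, CYP1B1 and ALDH3A1. Every probe set whose only gene symbol in the platform annotation was a member was taken, which gave 18 of 54613 probe sets for 8 of 19775 genes. The 2 induced cultures had received doxycycline for 48 h to express WIF1, a secreted antagonist of WNT signalling. No doxycycline time is listed for the 2 control cultures. The labels call the replicates biological and describe 1 array per culture. No array combined doxycycline with an absent WIF1 construct, so an effect of the drug and an effect of WIF1 cannot be told apart. The single WIF1 probe set lay near the floor, at 2.93 and 3.03 in the induced arrays and 2.98 and 2.90 in the controls (log2 intensity), a difference of 0.04 (SE 0.10) with overlapping groups. No rise of WIF1 was therefore seen, and it is not known here whether that probe set lies within the WIF1 sequence that was expressed, so the labels could not be checked on this gene.

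AHR is a ligand-activated transcription factor of the bHLH-PAS family that waits in the cytosol with HSP90 and the p23 protein PTGES3. After binding a ligand, such as a planar pollutant or the tryptophan product kynurenine, it enters the nucleus, pairs with ARNT and binds xenobiotic response elements. Its targets include cytochrome P450 enzymes of the CYP1 family, and also AHRR and TIPARP, which restrain the receptor in return. In glioblastoma the receptor is known for responding to kynurenine that the tumour cells make themselves.

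The values were log2 intensities from robust multi-array averaging (RMA), which makes the distributions of the arrays nearly equal. Intensities of different probe sets depend on their probes and were not set against each other as amounts of transcript. Array medians were 6.15 in both induced arrays, and 6.16 and 6.19 in the controls. Of the lineage genes looked at, VIM, NES, CD44, SOX2, S100B, FABP7 and OLIG2 were brighter than the median probe set (6.16), while SOX9 and the astrocyte filament gene GFAP lay below it. Limma called 0 of 54613 probe sets at an adjusted p under 0.05 (0%), and 5469 had an unadjusted p under 0.05 (10.0%). No member was therefore called. The genes were chosen by their place in the AHR pathway and with the induced minus control differences of these arrays known, among them that of TIPARP. The members' differences are therefore given as descriptions and without a p value. All differences are induced minus control, on the log2 scale, with n = 2 arrays in each group.

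In the induced arrays the receptor AHR, its repressor TIPARP and its target enzyme CYP1A1 had higher signals, at 1.36-fold, 1.30-fold and 1.53-fold of the controls. The brightest probe sets of AHRR, ARNT, CYP1B1 and ALDH3A1 differed by 0.05, -0.15, -0.13 and -0.21, and the probe sets of CYP1A2 disagreed. AHR, TIPARP and CYP1A1 were the 3 member probe sets outside the range that held the central 95% of all differences, -0.29 to 0.28. In RNA from whole cultures, more expressing cells and more transcript per cell cannot be told apart.

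AHR had log2 intensities of 10.23 and 10.38 in the induced arrays, against 9.85 and 9.87 in the controls. Both induced arrays lay above both controls, and the gap between the groups (0.36) was wider than the gap within the induced pair (0.15). The difference was 0.44 (SE 0.059). It rests on 1 probe set, 202820_at, in a gene at chr7:17298652-17346147 of GRCh38.p14.

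ARNT, the partner that AHR needs to bind DNA and that also pairs with hypoxia-inducible factors, was read by 7 probe sets with differences from -0.16 to 0.11. The brightest, 218221_at, had 7.75 and 7.80 in the induced arrays, against 7.92 and 7.93 in the controls, a difference of -0.15 (SE 0.060). Here both induced arrays lay below both controls. The next probe set by brightness, 218222_x_at, had 7.13 and 7.10 in the induced arrays and 7.20 and 7.10 in the controls, so the groups overlapped. The probe set 230619_at gave -0.10 and 231016_s_at gave 0.10, each without overlap between groups but in opposite directions. Over the 7 probe sets, 5 differences were below 0 and 2 above it, and the average of the 7 was -0.04. The probe sets of ARNT thus disagreed in sign, and no single direction describes the gene.

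AHRR, the repressor that competes with AHR for ARNT, had 9.84 and 9.79 in the induced arrays, against 9.76 and 9.78 in the controls. The groups did not overlap, but the gap between them (0.013) was narrower than the gap within the induced pair (0.056). The difference was 0.05 (SE 0.045), about the size of its own error.

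TIPARP, a mono-ADP-ribosyltransferase also called PARP7 that modifies AHR and lowers its activity, had 11.44 and 11.38 in the induced arrays, against 11.01 and 11.05 in the controls. Its groups were separated by 0.33, with gaps of 0.051 and 0.048 within the induced and the control pair. The difference was 0.38 (SE 0.039), the smallest error among the 18 probe sets. This gene, at chr3:156674590-156706770, was also read by 1 probe set only.

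CYP1A1, the monooxygenase often used as a readout of AHR activity, had 6.97 and 7.13 in the induced arrays, against 6.45 and 6.42 in the controls. The control values lay only a little above the median probe set (6.16). Whether the gene was expressed above background in the controls was not tested. Both induced arrays lay above both controls by at least 0.52, and the difference of 0.61 (SE 0.085) was the largest among the members. Like AHR, CYP1A1 had its higher value in the second induced array, while TIPARP had it in the first.

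CYP1A2, the neighbouring and closely related P450 gene that is typical of liver, gave no single answer. The probe set 207608_x_at had 6.99 and 7.11 in the induced arrays, against 6.95 and 6.63 in the controls, a difference of 0.26 (SE 0.12). Its groups were separated by 0.042, less than the gap of 0.32 between the controls. The suffix x marks a probe set with probes that may also bind other transcripts, and whether it reads CYP1A1 was not tested. The other probe set, 207609_s_at, had 5.91 and 5.99 in the induced arrays, against 6.01 and 6.16 in the controls, a difference of -0.14 (SE 0.096). The 2 probe sets of CYP1A2 pointed opposite ways.

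CYP1B1, a P450 of many extrahepatic tissues that activates polycyclic hydrocarbons and oestrogens, was read by 4 probe sets, all dim and all with a negative difference. The brightest, 202436_s_at, had 5.74 and 5.51 in the induced arrays, against 5.79 and 5.73 in the controls, so the groups overlapped. The probe set 202434_s_at had 5.20 and 5.42 in the induced arrays, against 5.49 and 5.50 in the controls. It was the only CYP1B1 probe set without overlap, at -0.19 (SE 0.11). The remaining 2 gave -0.08 and -0.15. These 4 probe sets share their gene and arrays and are not separate evidence. CYP1B1 therefore did not share the higher signal of CYP1A1, although both are AHR targets, and the difference between the genes was not tested.

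ALDH3A1, an aldehyde dehydrogenase of the classical xenobiotic gene battery, had 5.65 and 5.72 in the induced arrays, against 5.76 and 6.02 in the controls. The lower control and the higher induced array were 0.037 apart, less than the 0.26 between the controls. The difference was -0.21 (SE 0.12).

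**Figure D1:**
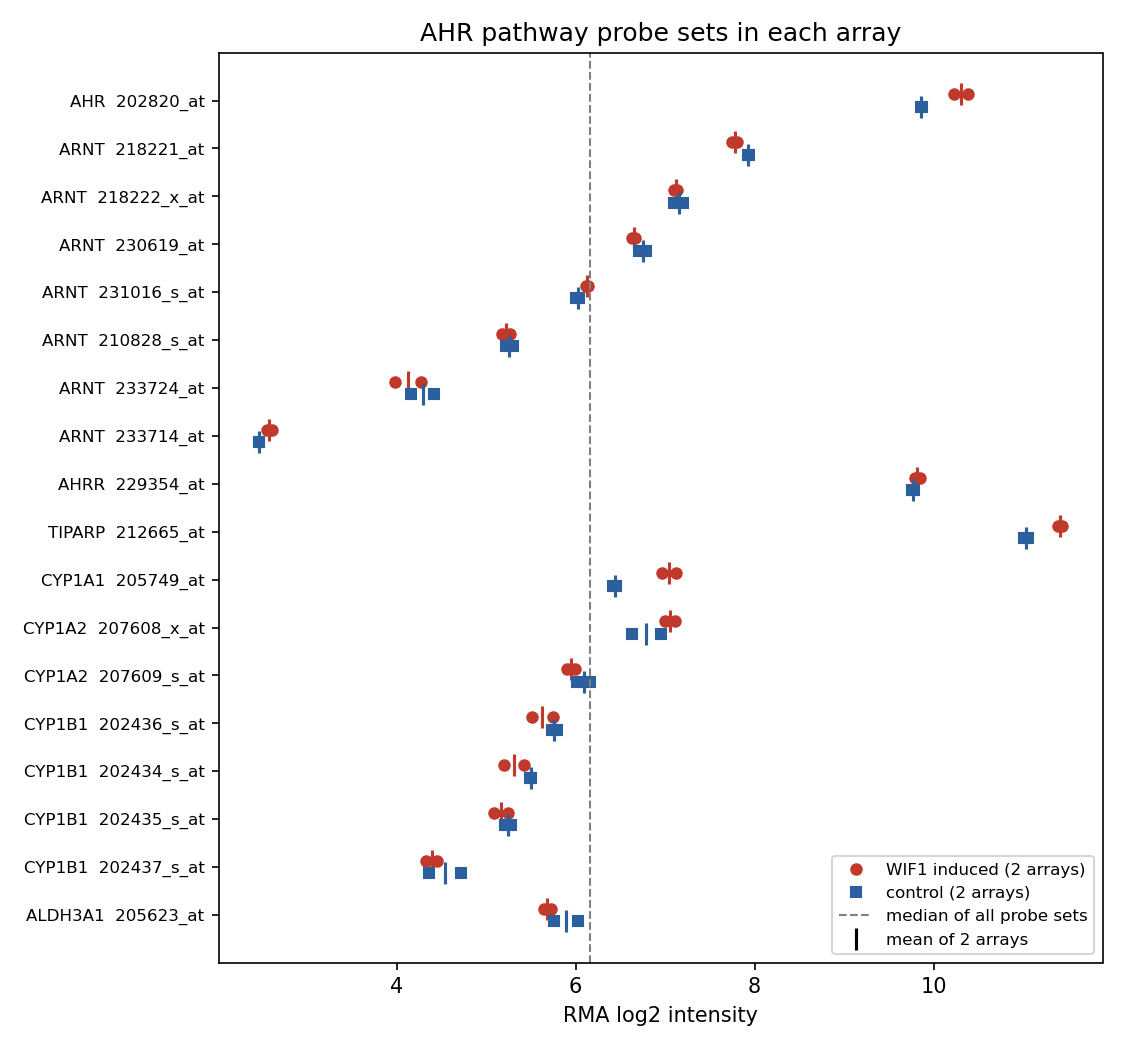
RMA log2 intensity (x axis) of the 18 member probe sets (rows) in each array, with induced arrays as red circles, controls as blue squares, the mean of each pair as a short vertical line and the median of all probe sets as a dashed line. AHR, TIPARP and CYP1A1 show 2 red points clear of the blue ones, while CYP1B1 and ALDH3A1 lie left of the dashed line.

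**Figure D2:**
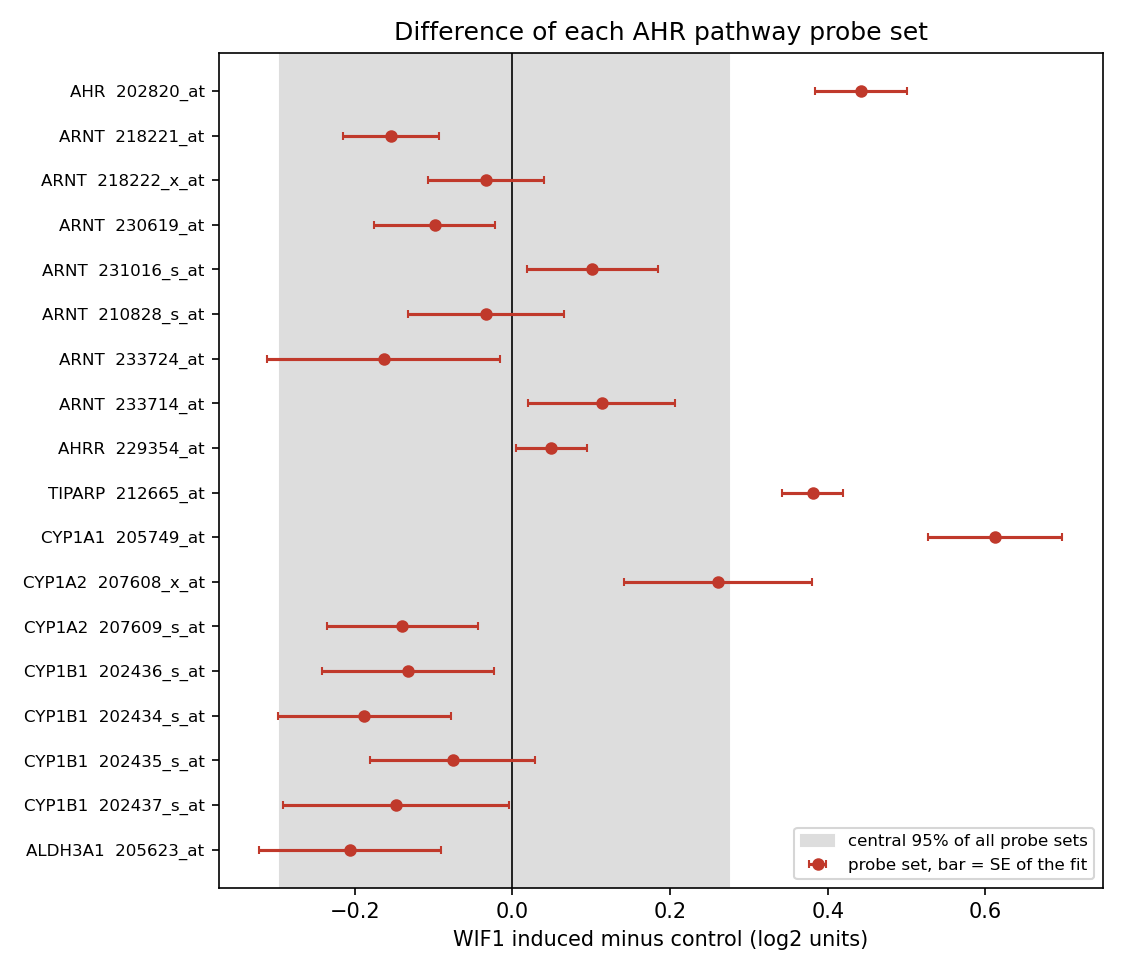
Induced minus control difference (x axis, log2 units) of each member probe set with the SE of the limma fit as bars, n = 2 arrays per group. The grey band runs from -0.29 to 0.28 and holds the central 95% of all probe sets, and only AHR (0.44), TIPARP (0.38) and CYP1A1 (0.61) lie outside it.

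Counted over all 18 member probe sets, 7 differences were above 0 and 11 below it, where 44.9% of all probe sets were above 0. The median of the 18 was -0.05, against a median of -0.01 over all probe sets. Without overlap between groups were 12 probe sets, where 41.4% of all probe sets had none. Of these, 7 were higher and 5 lower, where 17.9% of all probe sets were higher and 23.5% lower in this way. At an unadjusted p under 0.05 stood 3 higher and 1 lower, where 4.75% of all probe sets were higher and 5.27% lower. The members were known to include differences of this contrast when they were chosen, so nothing is read from these counts. With each gene given by its brightest probe set, 5 of the 8 genes were higher by sign and 3 lower, where 48.8% of all genes were higher. Of the 18 probe sets, 8 were at least as bright as the median probe set and 17 averaged 4 or more.

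The promoters of the 3 genes with the largest differences and of the repressor AHRR are shown because AHR and ARNT bind the core letters GCGTG. RefSeq promoters of GRCh38.p14 were matched for 6 of the 8 members, not for CYP1B1 and ALDH3A1. The 250 bases before the first listed start site are printed 5′ to 3′ on the gene's strand, with GCGTG or its reverse complement CACGC in capitals. They span chr7:17298402-17298651 (+ strand), chr3:156674340-156674589 (+ strand), chr15:74725529-74725778 (- strand) and chr5:321464-321713 (+ strand) in the order shown.
AHR: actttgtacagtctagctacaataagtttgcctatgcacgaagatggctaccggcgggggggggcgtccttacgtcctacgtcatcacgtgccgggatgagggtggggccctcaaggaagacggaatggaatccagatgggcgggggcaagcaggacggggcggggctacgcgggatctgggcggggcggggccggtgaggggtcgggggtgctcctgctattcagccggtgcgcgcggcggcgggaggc
TIPARP: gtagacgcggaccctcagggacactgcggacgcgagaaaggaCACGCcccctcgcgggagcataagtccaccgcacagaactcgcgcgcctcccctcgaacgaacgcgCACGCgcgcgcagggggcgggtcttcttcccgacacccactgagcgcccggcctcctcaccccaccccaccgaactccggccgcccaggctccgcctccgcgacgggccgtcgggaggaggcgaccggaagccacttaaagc
CYP1A1: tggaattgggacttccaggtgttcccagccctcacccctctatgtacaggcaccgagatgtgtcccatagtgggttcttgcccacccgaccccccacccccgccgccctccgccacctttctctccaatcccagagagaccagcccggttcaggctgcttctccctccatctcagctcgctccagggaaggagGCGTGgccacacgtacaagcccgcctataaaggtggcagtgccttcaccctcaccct
AHRR: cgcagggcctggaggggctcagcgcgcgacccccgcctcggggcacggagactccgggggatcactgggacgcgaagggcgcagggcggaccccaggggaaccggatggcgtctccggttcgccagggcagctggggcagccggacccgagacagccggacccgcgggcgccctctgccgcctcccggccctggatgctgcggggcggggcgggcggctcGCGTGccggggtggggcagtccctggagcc

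TIPARP held 2 matches to GCGTG, both on the reverse strand, which begin 208 and 142 bases before the start site. CYP1A1 held 1 match, 57 bases before its start, and AHR held 0. The first AHRR promoter held 1 match, which is also the only match among the member promoters to the longer form TNGCGTG. ARNT and CYP1A2 held 0. Among all 35116 promoter windows of this length, 32.2% had GCGTG on either strand and 4.52% had TNGCGTG, which always contains GCGTG. The matches are letters in a short window and not shown binding sites. Set beside the values above, AHR differed by 0.44 with 0 matches in this window and TIPARP by 0.38 with 2. CYP1A1 differed by 0.61 with 1 match and AHRR by 0.05 with 1. Whether the matches have a part in the differences was not tested. The second listed AHRR start site held 2 matches to GCGTG, and the 2 other TIPARP start sites held 0.

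Genes around the receptor were described from 8 lists of 110 genes, 101 of which had a probe set of their own. By brightest probe set, 46 of the 101 were higher by sign and 55 lower, with a median of -0.01, against a median of 0.00 over all 19775 genes. Of all genes, 48.8% were higher by sign. At an unadjusted p under 0.05 were 10 higher and 5 lower, where 6.48% of all genes were higher and 4.73% lower. The lists were chosen with earlier results of these data known, so nothing is read from these counts or from those of single lists. None passed at an adjusted p under 0.05, and the smallest was 0.160 (limma).

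The other AHR target genes had a median of 0.07 over 17 measured genes, with 10 higher and 7 lower by sign. At an unadjusted p under 0.05 stood 3 higher and 1 lower of the 17, where 6.48% of all genes were higher and 4.73% lower. The 3 with the smallest p were the cytokine IL6 at 1.01 (SE 0.088), the stanniocalcin STC2 at 0.46 (SE 0.047) and the cell cycle inhibitor CDKN1B at 0.30 (SE 0.053), genes that many other pathways also control. That median was 0.04 without the second induced array, 0.04 without the second control and 0.0019 when the probe sets of a gene were averaged. NQO1, the quinone reductase of the classical battery, had 12.35 and 12.40 in the induced arrays, against 12.48 and 12.46 in the controls, a difference of -0.10 (SE 0.032). Its other 2 probe sets gave -0.22 and -0.17. The glutathione transferase GSTA1, which has near-identical relatives, gave -0.14 and the efflux pump ABCG2 gave -0.13, each without overlap between groups. The dim probe sets of the glucuronosyltransferases UGT1A6 and UGT1A1 gave 0.16 (SE 0.16) and -0.27 (SE 0.18) with overlapping groups. NQO1, GSTA1, ABCG2, UGT1A6 and UGT1A1 were named after their values were seen.

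Enzymes that make or use kynurenine and other ligands had a median of -0.04 over 14 genes, with 6 higher and 8 lower by sign. The sign of that median turned when 1 array was left out, to 0.07 without the first induced array and 0.03 without the second control. TDO2, which opens the tryptophan ring and is the main kynurenine source described in glioblastoma, lay near the floor at 2.82 and 3.48 in the induced arrays and 3.34 and 3.28 in the controls. IDO1, another enzyme for this step, had 6.19 and 6.33 in the induced arrays, against 6.14 and 6.36 in the controls. Neither TDO2 nor IDO1 separated the groups. The dim probe set of the related IDO2 had 4.08 and 4.23 in the induced arrays, against 3.90 and 3.99 in the controls. Its difference was 0.21 (SE 0.11), without overlap between groups. SLC3A2, the heavy chain of the amino acid transporter that carries tryptophan, was 0.11 higher (SE 0.039), and its light chain SLC7A5 differed by -0.01. The aminotransferases KYAT3 and AADAT, which turn kynurenine into kynurenic acid, gave 0.15 (SE 0.059) and -0.16 (SE 0.060). The largest value was that of KMO, the kynurenine 3-monooxygenase, at 0.61 (SE 0.12) by a dim probe set, whose other 2 probe sets gave 0.04 and 0.15. TDO2, IDO1, IDO2, KMO and SLC7A5 were named after their values were seen.

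The chaperones and the kinase of the cytosolic AHR complex had a median of -0.05 over 4 genes. HSP90AB1, which holds the unliganded receptor, was at -0.09 (SE 0.033), with both induced arrays below both controls. PTGES3 and the kinase SRC gave -0.03 and -0.06, and the other 6 probe sets of SRC gave -0.19 to 0.11. In the family of bHLH-PAS factors, 13 genes had a median of -0.02. An unadjusted p under 0.05 was reached by 0 of the 13, where 6.48% of all genes were higher and 4.73% lower in this way. That median was -0.04 without the first induced array and -0.0021 without the second. Its sign turned, to 0.0070, when the arrays were centred on their medians. The clock factor BMAL1 gave 0.12, with -0.15 by its other probe set, while HIF3A and the neuronal factor NPAS4 gave -0.13 and -0.20. The other 6 probe sets of HIF3A gave -0.24 to 0.09, and that of NPAS4 gave -0.08. ARNT2, which can stand in for ARNT, differed by -0.03 with overlapping groups (named after its value was seen).

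Coregulators used by AHR had a median of 0.09 over 13 genes, with 9 higher and 4 lower by sign. That median was 0.04 without the second induced array, 0.03 without the second control and 0.0094 when the probe sets of a gene were averaged. An unadjusted p under 0.05 was reached by 2 of the higher and 1 of the lower genes, where 6.48% of all genes were higher and 4.73% lower. The acetyltransferase CREBBP had 9.91 and 9.96 in the induced arrays, against 9.67 and 9.55 in the controls, a difference of 0.32 (SE 0.056). Its other 3 probe sets gave -0.18 to 0.03. The pocket protein RB1 gave 0.22 (SE 0.080) and the Mediator subunit MED1 -0.18 (SE 0.064), and their other probe sets also disagreed in sign.

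The electron donors and partner enzymes of CYP1 had a median of -0.05 over 8 genes, and the 3 with the smallest p were all lower. That median ran between -0.09 without the first control and -0.01 without the second. GSTP1, a glutathione transferase, was at -0.11 (SE 0.041), the reductase AKR1C1 at -0.20 (SE 0.094) and the sulfotransferase SULT1A1 at -0.12 (SE 0.073). The groups overlapped for SULT1A1, and its other 2 probe sets gave -0.07 and 0.11. AKR1C1 has near-identical relatives, and its other 4 probe sets gave -0.18 to 0.31. The relatives of TIPARP in the PARP family had a median of -0.03 over 16 genes. By sign 3 were higher and 13 lower, where 48.8% of all genes were higher. That median ran between -0.05 without the first induced array and -0.0037 without the second. PARP8 was the highest at 0.20 (SE 0.076), against 0.38 for TIPARP, and its other probe set gave -0.09. PARP2 and ZC3HAV1 gave -0.09 each, and the other 2 probe sets of ZC3HAV1 gave -0.10 and 0.02. The aldehyde dehydrogenases other than ALDH3A1 had a median of 0.02 over 16 genes, with 8 higher and 8 lower by sign. That median turned to -0.01 without the first induced array and without the first control. It was also below 0 after cyclic loess normalisation (-0.0051) and when the probe sets of a gene were averaged (-0.0055). ALDH3B1 gave 0.26 (SE 0.088), while ALDH1B1 and ALDH16A1 gave -0.11 and -0.12. The other probe set of ALDH1B1 gave 0.03.

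**Figure D3:**
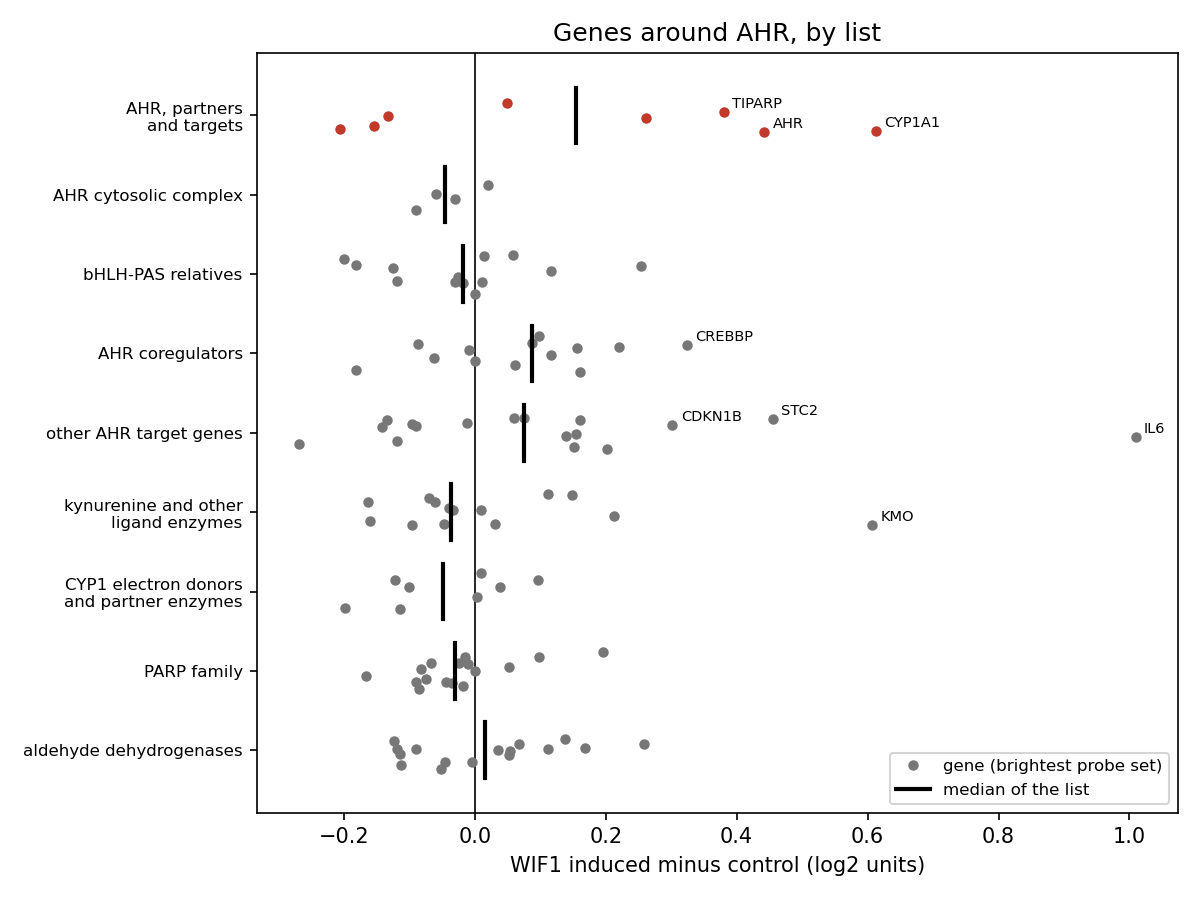
Induced minus control difference (x axis, log2 units) of each gene by its brightest probe set, in the 8 member genes (red) and the 8 lists around AHR (grey), with list medians as black bars and vertical scatter only to separate points. Most genes lie within 0.28 of 0, and AHR, TIPARP, CYP1A1, CREBBP, CDKN1B, STC2, IL6 and KMO, which are named, lie beyond it.

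For likeness, profiles over the 4 arrays were compared after subtracting each gene's mean, by Euclidean distance in log2 units among 12721 genes at or above the median. The 5 genes most like TIPARP were the small MAF factor MAFF (0.025), SLFN12, TUFT1, FILIP1L and the interferon regulatory factor IRF1 (0.060). Those most like AHR were the EGF family ligand NRG1 (0.045), CMC1, DEPDC7, SPATA4 and ZNF776 (0.075). Those most like CYP1A1 were the chemokine CXCL8 (0.058), ZFP30, SNAPC1, TUBE1 and tissue factor F3 (0.12). With 4 arrays such likeness mostly says that the genes differ between groups by a similar amount. For ARNT the nearest genes were GPD1L, JAK3, BTN2A2, SHISAL1 and DEPDC5, for AHRR they were ADIRF, ACTL8, MED10, HAX1 and METTL21A, and for CYP1A2 they were MARCHF7, C6orf15, C20orf141, GTF2H3 and SGMS2.

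Some other measures also lay higher or lower in the induced arrays. The 3' minus 5' log2 difference of ACTB was 0.033 and 0.11 in the induced arrays, against -0.036 and 0.021 in the controls. For ACTB the gap between the groups was narrower than the gap within either pair. The same measure of GAPDH was -0.043 and -0.047 in the induced arrays, against -0.067 and -0.069 in the controls. For the dap spike it was 2.66 and 2.93 in the induced arrays, against 2.59 and 2.69 in the controls, with overlapping groups. All 3 neuronal markers looked at were higher by sign, SYT1 at 0.35 (SE 0.065), SNAP25 at 0.11 (SE 0.072) and RBFOX3 at 0.03 (SE 0.077). Other probe sets gave 0.09 for SYT1, -0.06 to 0.18 for SNAP25 and -0.19 to 0.0046 for RBFOX3. The summed level of the 3 markers was 9.88 and 9.78 in the induced arrays, against 9.60 and 9.52 in the controls. Most of that sum was SYT1, at 9.42 and 9.31 in the induced arrays, against 9.07 and 8.95 in the controls. Of the 9 markers of the glioma and astrocyte lineage, 8 were lower by sign, where 48.8% of all genes were higher by sign. An unadjusted p under 0.05 was reached by 3 of those 8 markers, where 4.73% of all genes were lower in this way. They were FABP7 at -0.19 (SE 0.034), SOX2 at -0.15 (SE 0.053) and S100B at -0.12 (SE 0.038), all named after their values were seen. The summed level of that list was 15.01 in each induced array, against 15.09 and 15.06 in the controls. The part of these measures in the members' differences was not tested. The sums for leukocyte, endothelial and epithelial markers overlapped between the groups.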

How the data were processed

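Expression was measured in 4 cultures with 1 Affymetrix array each, grouped by their titles. The deposited values are log2 intensities per probe set. Per the submitters' processing notes, the authors used RMA and the affy package. Versions and scanner files were not given in the sources used here. RMA makes array distributions nearly equal, so a change shared by most genes would not be seen.

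The 62 control probe sets among 54675 rows were not tested. Symbols came from the platform annotation (41091 probe sets with 1 symbol). The brightest probe set on average stands for a gene. Differences and SEs came from limma 3.58.1 in R 4.3.3 (lmFit, eBayes with an intensity trend, 2-sided, Benjamini-Hochberg over 54613 probe sets, threshold 0.05, 6.27 degrees of freedom including 4.27 of the prior). The test was checked on simulated data. With 2 arrays per group, the number of arrays limits the precision.

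The members and lists were chosen with earlier results of these data known. From each list the 3 genes of smallest unadjusted p were named, among genes at least as bright as the median probe set, and the 5 genes nearest in profile to each member of that brightness. Other names were chosen after their values were seen. Same-numbered arrays were not taken as pairs, since the labels name no shared batch and 2 pairs are too few (their deviations from the group means correlated at 0.056). Alternatives were a replicate block, other eBayes settings, filters on dim probe sets, other normalisations, averaging of probe sets, a threshold of 0.1 and leaving out each array.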

Additional observations from a re-analysis of the deposited data

How the results depend on the processing

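AHR, TIPARP and CYP1A1 kept a positive difference under the 7 alternatives run for each (replicate block, centring, cyclic loess and leaving out each array), from 0.37 to 0.52, 0.36 to 0.41 and 0.53 to 0.69. The sign of single dim or flat probe sets turned, in 1 of 7 alternatives each for 218222_x_at of ARNT and for 202435_s_at and 202437_s_at of CYP1B1, and in 2 of 7 for 210828_s_at of ARNT. The x probe set of CYP1A2 ranged from 0.10 to 0.42, and the average of both CYP1A2 probe sets gave 0.06. The count of called probe sets, 0 in the main setting, was 2 with robust eBayes, 5 after centring, 11 after cyclic loess and 2 at a threshold of 0.1, all higher, and 0 under the other settings, which include the replicate block and each array left out. Member probe sets at an unadjusted p under 0.05 numbered 4 in the main setting, where 10.0% of all probe sets reached it. They numbered 3 with the replicate block, which changed no adjusted call, where 8.10% of all probe sets reached it. Under the other settings that kept all 4 arrays they numbered 3 or 4. Member probe sets without overlap numbered 12, where 41.4% of all probe sets had no overlap. Among the 8 at or above the median they numbered 7, where 46.2% of all probe sets that bright had no overlap. With an array left out they numbered 14 to 17, where 67.1% to 74.0% of all probe sets had no overlap. Over the settings that kept all 4 arrays, the share of tested probe sets at an unadjusted p under 0.05 ran from 8.10% to 12.7%.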

Other observations

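Antisense transcripts of the members were read by separate probe sets. TIPARP-AS1 had 5.17 and 5.19 in the induced arrays, against 5.12 and 5.06 in the controls, a difference of 0.09 (SE 0.095). The probe sets of CYP1B1-AS1 gave 0.04 (SE 0.15) and 0.00 (SE 0.12), with overlapping groups.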
